A study of Homo sapiens with 6 samples.

Results

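The 10 genes described here encode the enzymes that make and desaturate fatty acids: ACLY, ACSS2, ME1, ACACA, FASN, ELOVL5, ELOVL6, SCD, FADS1 and FADS2. They were chosen by name from the deposited table, in which 81496 gene symbols were measured, and all 10 were found there. Expression was compared between MCF10.AT1, an HRAS-transformed preneoplastic derivative of the human mammary epithelial line MCF10A, and MCF10.AT1-R, a fluvastatin resistant line selected from it. Each line was profiled on 3 Clariom D arrays labelled as biological replicates of total RNA. The MCF10.AT1 cells were labelled as untreated and sensitive. The MCF10.AT1-R cells had been exposed to fluvastatin, an inhibitor of HMG-CoA reductase, in rising doses of 1, 5 and up to 20 µM. Both lines were grown in the same medium with horse serum, EGF, hydrocortisone and insulin, and the sources used here do not say whether fluvastatin was present when RNA was taken. Resistance is represented by 1 selected line, so selection and chance divergence of that line cannot be told apart.

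Values are log2 signals per probe set, made by the RMA method, and a difference of 1 is a doubling. Arrays A01 to A03 hold MCF10.AT1 and arrays B02 to B04 hold MCF10.AT1-R. The study removed A03 as an outlier. On A03 all 10 enzymes read 2.36 to 5.19, below each of the other 5 arrays, and its correlation with those arrays was 0.779 to 0.795, against 0.967 to 0.977 among the 5. A03 is therefore shown apart, and the lines were compared with 2 arrays against 3. Hybridization controls, added to the sample after labelling, were 0.44 higher in MCF10.AT1-R on average, and negative controls differed by -0.02. The array letter and the line cannot be told apart. As epithelial lines, both carried KRT5, KRT18 and CDH1 above the negative controls on all 5 arrays. All 8 basal and 7 of 8 luminal markers had higher values on every MCF10.AT1-R array than on A01 and A02, an order seen for 12.8% of all symbols.

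Fatty acid synthesis begins in the cytosol with acetyl-CoA, which ACLY splits from citrate and ACSS2 makes from acetate. ACACA carboxylates it to malonyl-CoA, FASN builds palmitate from both with NADPH that ME1 helps to supply, and ELOVL6 extends palmitate to stearate. SCD places the double bond that makes oleate and palmitoleate, whereas FADS2, FADS1 and ELOVL5 convert dietary linoleic and linolenic acid into long polyunsaturated fatty acids. The genes are classical targets of SREBP transcription factors, of which SREBP1 acts mainly on fatty acid genes and SREBP2 mainly on cholesterol genes. When statins deplete sterols, SREBPs are released from the endoplasmic reticulum and activate both kinds of genes.

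SREBPs act together with NF-Y, which binds CCAAT boxes, and with SP1, which binds GC boxes. The RefSeq promoter table (GRCh38.p14) held windows for 9 of the 10 genes, all but FASN, 14 windows in all. The 250 bases before the start are printed 5′ to 3′ for the 3 enzymes with the largest differences between the lines and for FADS1, the one without a higher mean in MCF10.AT1-R. Where a gene had several starts the innermost is shown. Capitals mark CCAAT or its reverse complement ATTGG, and GGGCGG or its reverse complement CCGCCC.
ACLY (chr17:41918952-41919201, minus strand): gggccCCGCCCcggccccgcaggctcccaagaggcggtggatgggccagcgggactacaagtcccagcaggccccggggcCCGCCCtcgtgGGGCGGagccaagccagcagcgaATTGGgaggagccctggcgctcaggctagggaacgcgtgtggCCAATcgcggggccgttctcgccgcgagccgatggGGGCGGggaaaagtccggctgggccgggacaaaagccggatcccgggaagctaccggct
ACSS2 (chr20:34876362-34876611, plus strand): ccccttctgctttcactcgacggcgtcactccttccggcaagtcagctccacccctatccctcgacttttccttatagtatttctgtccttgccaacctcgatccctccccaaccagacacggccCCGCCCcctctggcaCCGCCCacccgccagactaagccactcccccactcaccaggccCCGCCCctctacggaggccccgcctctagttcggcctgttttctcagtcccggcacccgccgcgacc
SCD (chr10:100346983-100347232, plus strand): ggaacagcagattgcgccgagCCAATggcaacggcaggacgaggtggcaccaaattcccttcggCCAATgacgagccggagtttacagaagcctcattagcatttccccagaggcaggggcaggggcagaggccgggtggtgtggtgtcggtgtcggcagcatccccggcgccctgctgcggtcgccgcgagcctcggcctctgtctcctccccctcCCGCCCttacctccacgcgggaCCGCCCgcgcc
FADS1 (chr11:61817004-61817253, minus strand): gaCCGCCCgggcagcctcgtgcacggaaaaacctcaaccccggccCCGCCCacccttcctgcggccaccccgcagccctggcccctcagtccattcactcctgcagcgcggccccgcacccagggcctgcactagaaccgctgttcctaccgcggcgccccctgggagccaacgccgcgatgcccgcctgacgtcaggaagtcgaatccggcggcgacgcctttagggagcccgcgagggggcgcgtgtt
In ACLY the CCAAT boxes began 136 and 94 bases before the start, and in SCD 229 and 186 bases before it. The ACSS2 window shown held GC boxes only, whereas the window of its outer start also held a CCAAT box. The FADS1 window held GC boxes and no CCAAT box, as did 1 of the FADS2 windows, and the other FADS2 window held neither. CCAAT occurred, on either strand, in 7 of the 14 windows, those of ACLY, ACSS2, ACACA, SCD and ELOVL5, and in 32% of all 35116 windows. The windows are not independent, since some genes supplied several and those of ACLY overlap and share their CCAAT boxes. GGGCGG occurred in 11 of the 14 windows and in 42.6% of all. The letters TCACNCCAC of a sterol regulatory element were in 0 of the 14 windows and in 0.883% of all, and the E-box CACGTG was in 1, that of ELOVL5, and in 6.34% of all. The motifs were searched on both strands, and no motif holds another. These matches describe the letters of short windows and not binding sites.

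Both enzymes that produce cytosolic acetyl-CoA were called higher in the resistant line, and none of the 8 enzymes tested was called lower. Neither call held in all alternative settings. In limma across all probe sets, ACLY and ACSS2 passed a false discovery rate (FDR) of 5%, 2 of the 8 enzymes that passed the filter on low and invariant genes, against 1.2% of the 51457 probe sets tested (0.758% as higher and 0.447% as lower). FADS1 and FADS2 varied too little over the 5 arrays to pass that filter and were read from an unfiltered fit. The filter took the SD over both lines, so a difference between the lines itself helps a gene to pass. ACLY, for example, had a residual SD within lines of 0.05, under the limit of 0.18. With the low-expression filter alone all 10 enzymes were tested and 0 passed. Means were higher in MCF10.AT1-R for 9 of the 10 enzymes, and the median log2 change was 0.46, or 1.37-fold, against a median of 0.005 over all 81496 symbols. For 8 of the 10, every MCF10.AT1-R array lay above A01 and A02, and for ELOVL5 and FADS1 the lines overlapped. This order was seen for 12.9% of tested probe sets and 12.8% of all symbols, and separation in either direction for 26.7% of tested probe sets. These shares include probe sets within the negative controls, and the share among those above them was not computed. Summed over the 10 enzymes, the log2 values came to 74.0 and 74.5 on the MCF10.AT1 arrays and to 79.1, 79.3 and 80.0 on the MCF10.AT1-R arrays. In bulk RNA, a different share of cells of a kind and a different amount of RNA per cell cannot be told apart.

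**Figure D1:**
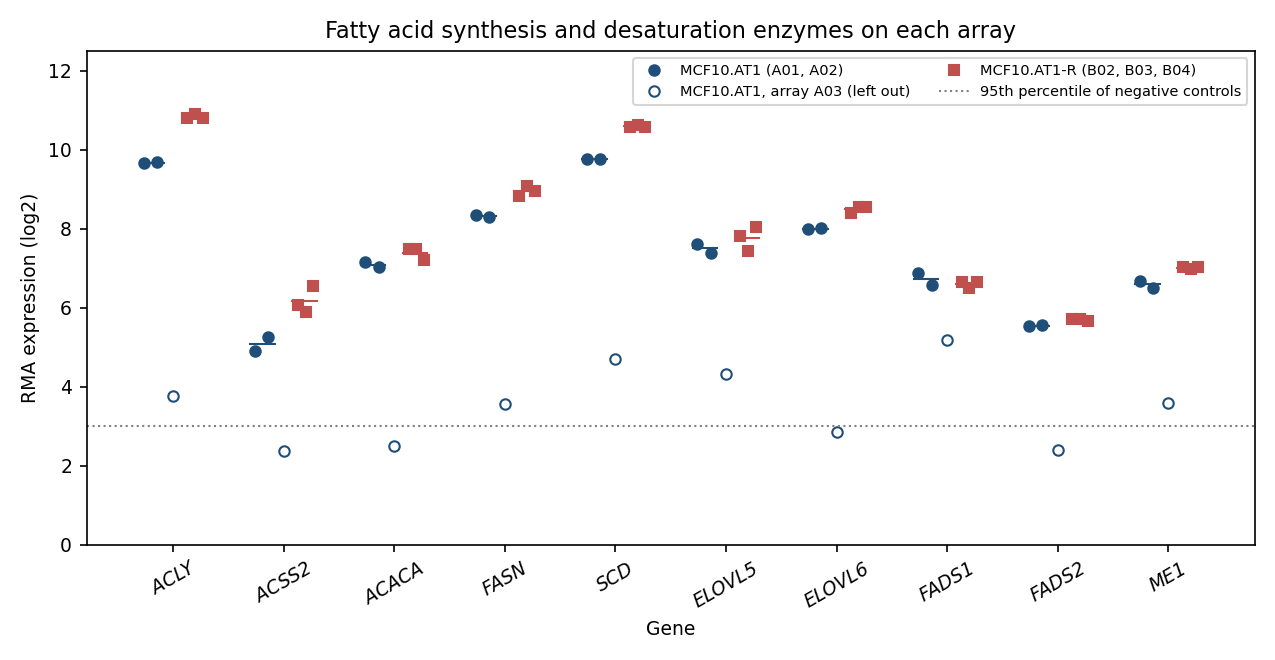
RMA expression (log2) of the 10 enzymes on each array, with filled circles for A01 and A02 of MCF10.AT1, open circles for A03, squares for the MCF10.AT1-R arrays and short lines for the means of the arrays compared. ACLY and SCD show tight arrays and a wide gap between the lines, FADS1 and ELOVL5 overlap, and A03 lies below all other arrays for each gene.

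ACLY, which cleaves citrate exported from mitochondria, read 9.66 and 9.67 on A01 and A02 and 10.80, 10.91 and 10.81 on B02, B03 and B04. The lines were separated by 1.13 between their nearest arrays, many times the spread within either line. Its mean went from 9.67 ± 0.01 (SD, n = 2) to 10.84 ± 0.06 (SD, n = 3), a rise of 2.25-fold (log2 change 1.17, standard error 0.31, adjusted p = 0.019 from limma). Of all symbols, 99.7% had a smaller rise or a lower value in MCF10.AT1-R. The call was lost without A01 (adjusted p = 0.295 from limma), without A02 (0.311) and without B04 (0.0523), although the log2 change then stayed between 1.17 and 1.19. Over all 14 alternative settings its adjusted p in limma ran from 5.4e-58 to 0.777.

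ACSS2, which lets cells use acetate, read 4.89 and 5.26 in MCF10.AT1 and 6.06, 5.89 and 6.54 in MCF10.AT1-R. The arrays of each line were more scattered than for ACLY, and B04 was the highest. The rise was 2.13-fold, from 5.07 ± 0.26 (SD, n = 2) to 6.16 ± 0.34 (SD, n = 3), with a log2 change of 1.09 (standard error 0.31, adjusted p = 0.0403 from limma). ACSS2 no longer passed when A01 (adjusted p = 0.663 from limma), A02 (0.195), B02 (0.0699) or B04 (0.295) was left out. A second probe set of the gene stayed within the negative controls on all 5 arrays, at 1.20 to 2.29, and the average of both rose by less and did not pass, at 0.57 on the log2 scale (adjusted p = 0.668 from limma). The adjusted p of ACSS2 ran from 0.000232 to 0.777 over the alternative settings in limma.

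ME1, the cytosolic malic enzyme that yields NADPH, read 6.67 and 6.49 in MCF10.AT1 and 7.01, 6.97 and 7.04 in MCF10.AT1-R. The MCF10.AT1-R arrays lay close together above both others. The log2 difference of 0.42 (95% interval -0.19 to 1.03) did not pass (adjusted p = 0.799 from limma).

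ACACA, the rate-limiting acetyl-CoA carboxylase, read 7.16 and 7.02 in MCF10.AT1 and 7.48, 7.47 and 7.21 in MCF10.AT1-R. B04 exceeded A01 by only 0.05. The log2 difference was 0.30 (95% interval -0.31 to 0.91, adjusted p = 0.839 from limma), and the second ACACA probe set stayed within the negative controls. FASN, the multidomain synthase, read 8.34 and 8.29 in MCF10.AT1 and 8.82, 9.08 and 8.94 in MCF10.AT1-R, with a gap of 0.47 between the lines. The difference was 1.54-fold (log2 0.63, 95% interval 0.02 to 1.24), with an adjusted p of 0.579 from limma.

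SCD, the delta-9 desaturase, read 9.75 and 9.77 in MCF10.AT1 and 10.58, 10.63 and 10.58 in MCF10.AT1-R. The groups were separated by 0.81 and the log2 difference was 0.83, or 1.78-fold (95% interval 1.17 to 2.72), but the adjusted p was 0.259 from limma. ELOVL6, which lengthens palmitate, read 7.98 and 8.02 in MCF10.AT1 and 8.38, 8.54 and 8.55 in MCF10.AT1-R, without overlap. Its difference of 0.49 gave an adjusted p of 0.748 from limma.

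The enzymes of the polyunsaturated branch showed the smallest differences, but ELOVL5 was not separated from ACACA, the next in order. Their changes differed by 0.04 (SD within lines 0.36), and without B03 ELOVL5 ranked above ACACA (0.42 against 0.26). ELOVL5 read 7.62 and 7.38 in MCF10.AT1 and 7.81, 7.42 and 8.03 in MCF10.AT1-R. B03 fell between the MCF10.AT1 arrays, and the log2 difference of 0.25 was within the spread between MCF10.AT1-R arrays (SD 0.31, n = 3). FADS2, the delta-6 desaturase, read 5.53 and 5.55 in MCF10.AT1 and 5.70, 5.71 and 5.66 in MCF10.AT1-R. Its arrays did not overlap, but the difference was only 0.15 (95% interval -0.26 to 0.56, adjusted p = 0.915 from limma without a filter). FADS1, the delta-5 desaturase, read 6.87 and 6.56 in MCF10.AT1 and 6.64, 6.50 and 6.65 in MCF10.AT1-R. The lines overlapped, with a log2 difference of -0.12 (95% interval -0.56 to 0.32, adjusted p = 0.943 from limma without a filter) that turned to 0.03 without A01. FADS1 and FADS2 lie beside each other on chromosome 11 on opposite strands with overlapping starts.

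**Figure D2:**
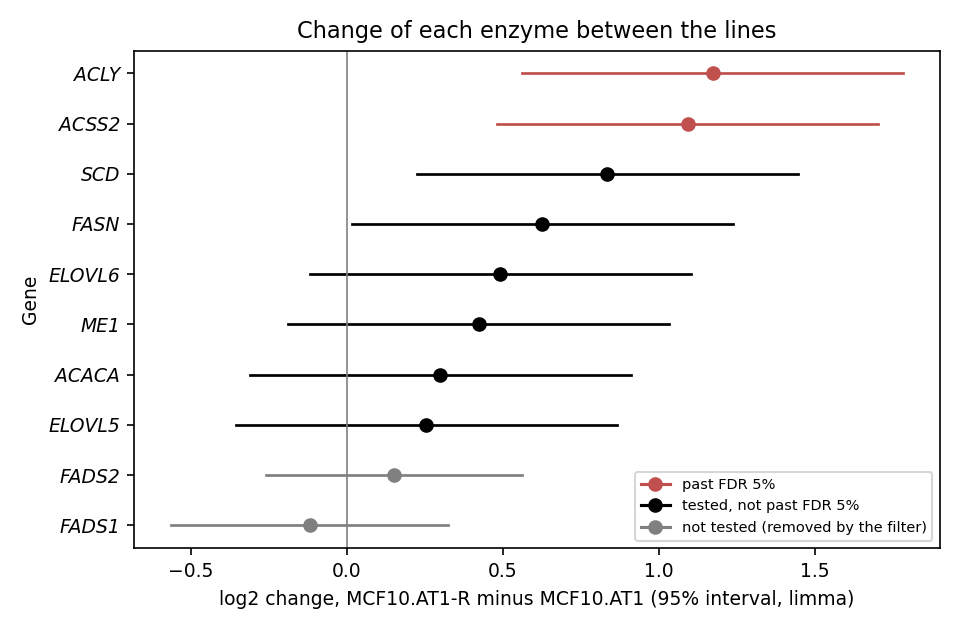
log2 change of each enzyme (MCF10.AT1-R minus MCF10.AT1, x axis) with its 95% interval from limma, ordered by size. ACLY at 1.17 and ACSS2 at 1.09 are past FDR 5%, and the interval of FADS1, at -0.12, spans 0.

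The log2 changes ranged from -0.12 for FADS1 to 1.17 for ACLY. Within each array, the difference between the enzymes of a pair was taken and compared between the lines as a description, without a test. ACLY changed more than SCD by 0.34 (SD within lines 0.02), more than FASN by 0.55 (SD 0.07) and more than ACACA by 0.87 (SD 0.13), and in each case the lines did not overlap. SCD changed more than FADS2 by 0.68 (SD 0.02) and more than FADS1 by 0.95 (SD 0.16), again without overlap. ELOVL6 changed more than ELOVL5 by 0.24 (SD 0.29), and there the lines overlapped. Of the 9 pairs of neighbours in the order of change, 3 differed without overlap: SCD against FASN by 0.21, FASN against ELOVL6 by 0.14 and FADS2 against FADS1 by 0.27. The remaining neighbours, ACLY and ACSS2 among them (0.08, SD within lines 0.34), did not differ beyond their spread. Neighbours were defined by these same changes, and the other pairs set larger against smaller changes of the same data. Single probe sets separated in either direction in 26.7% of those tested, and the share among pairs of other genes was not computed.

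limma assigned a single SD of 0.34 to all probe sets here, above the residual SD of all 10 enzymes, and no change under 1.07 was called. With a variance trend on expression level, 5 of 8 passed (ACLY, ACSS2, SCD, FASN and ELOVL6, against 2.68% of tested probe sets, 1.69% as higher), whereas with the low-expression filter alone or without a filter 0 passed (ACLY adjusted p = 0.0612 and 0.0877 from limma).

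Among 13 close relatives of these enzymes, SCD5 and ELOVL4 rose, 0 fell, 7 did not pass and 4 were not tested. SCD5, a second delta-9 desaturase, read 4.50 and 4.17 in MCF10.AT1 and 5.78, 5.75 and 5.57 in MCF10.AT1-R. These values did not overlap and gave a rise of 2.58-fold (log2 change 1.37, standard error 0.31, adjusted p = 0.00204 from limma). ELOVL4, which makes very long chains, read 3.42 and 4.01 in MCF10.AT1 and 5.12, 4.49 and 5.58 in MCF10.AT1-R. It rose by 1.35 on the log2 scale with more scatter (adjusted p = 0.00259 from limma, and 0.412 without a filter). Without a filter SCD5 had an adjusted p of 0.0673 from limma.

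FADS3 and ELOVL7 had higher values on all MCF10.AT1-R arrays, with log2 differences of 0.98 (adjusted p = 0.103 from limma) and 0.95 (adjusted p = 0.128). ELOVL1 overlapped between the lines, at a difference of 0.24. ELOVL2 differed by -0.002 near the level of the negative controls, and ELOVL3 stayed within them on all 5 arrays. ACACB, the mitochondrial-membrane carboxylase that restrains fatty acid oxidation, also stayed within the negative controls. ACSS1, the mitochondrial counterpart of ACSS2, differed by -0.33 with overlapping lines. The mitochondrial malic enzymes ME2 and ME3 differed by 0.23 and 0.12 and were not tested after the filter. ME2 was higher on every MCF10.AT1-R array, whereas ME3 overlapped and was within the negative controls.

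**Figure D3:**
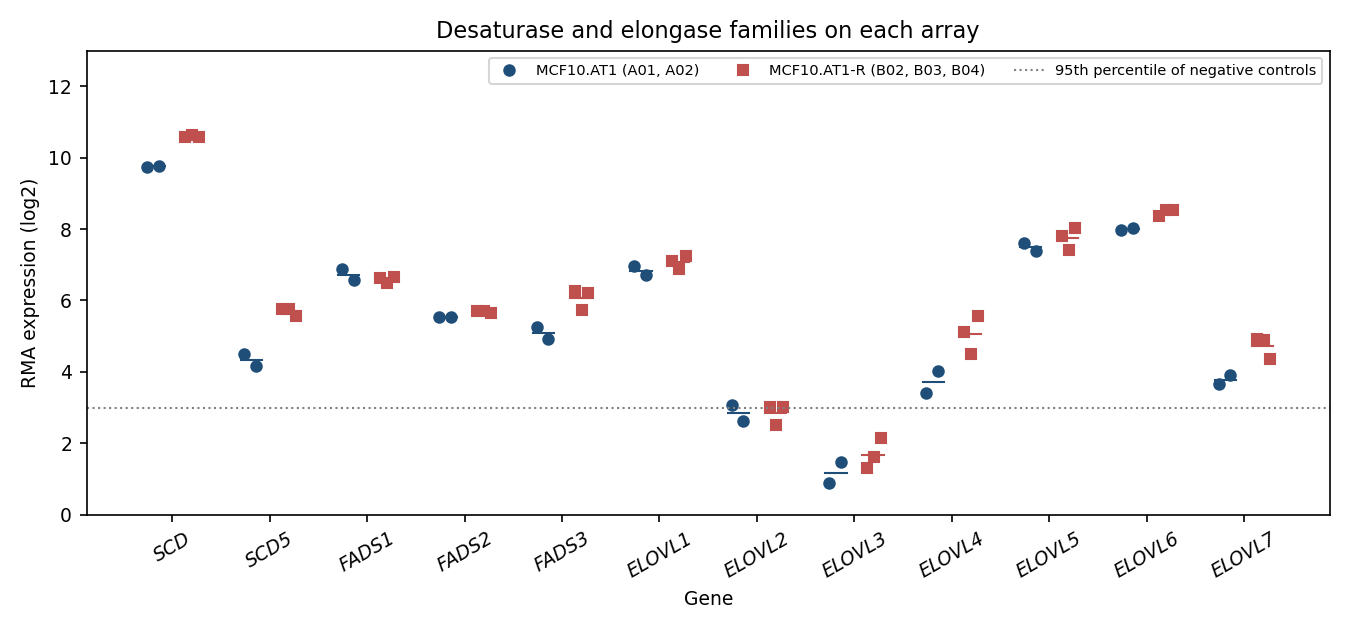
RMA expression (log2) of the stearoyl-CoA desaturases, the FADS family and the 7 ELOVL elongases on the 5 arrays compared (circles, MCF10.AT1; squares, MCF10.AT1-R; short lines, means). SCD, SCD5, FADS3, ELOVL4, ELOVL6 and ELOVL7 are separated between the lines, FADS2 is separated by only 0.11, and ELOVL2 lies near and ELOVL3 under the dotted 95th percentile of the negative controls.

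The further steps around these enzymes were examined with lists of genes of known function. In the elongation cycle and its electron donors, 0 of 13 genes passed the test and 5 were tested, with a median log2 change of 0.24. Its largest differences were HSD17B12, the ketoacyl reductase of the cycle, at 0.85 (adjusted p = 0.239 from limma) and CYB5R1, a cytochrome b5 reductase, at 0.83. Among 12 genes of citrate and NADPH supply, 0 passed of 6 tested, with a median of -0.01. IDH1, which makes NADPH in the cytosol, read 8.26 and 8.25 in MCF10.AT1 and 9.26, 9.15 and 9.08 in MCF10.AT1-R, a difference of 0.91 (adjusted p = 0.168 from limma).

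Of 22 regulators of lipogenic genes, 0 passed of 13 tested, with a median change of 0.01. SREBF1, which encodes SREBP1, read 7.38 and 7.57 in MCF10.AT1 and 7.04, 7.27 and 7.33 in MCF10.AT1-R. All MCF10.AT1-R arrays were thus lower, by -0.27 on average (adjusted p = 0.845 from limma). SREBF2, which encodes SREBP2, differed by 0.13 (not tested after the filter). INSIG1, a retention factor for SREBPs and itself an SREBP target, differed by 0.88 (adjusted p = 0.205 from limma), without overlap of the lines.

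In the list of fatty acid activation and binding, 2 of 19 genes fell and 0 rose, with 15 tested and a median of 0.12. FABP4, a fatty acid binding protein best known from adipocytes, read 5.33 and 5.68 in MCF10.AT1 and 3.91, 3.52 and 3.30 in MCF10.AT1-R. It fell by 1.93 on the log2 scale (standard error 0.31, adjusted p = 3.28e-07 from limma, and 0.0286 without a filter). ACSL5, a long-chain acyl-CoA synthetase, read 5.16 and 5.07 in MCF10.AT1 and 3.53, 3.65 and 3.98 in MCF10.AT1-R. It fell by 1.40 (adjusted p = 0.00138 from limma, and 0.0736 without a filter), whereas ACSL1 and ACSL3 differed by 0.51 and 0.50 in the other direction and did not pass.

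No gene passed in 3 further lists. In limma, 0 of the 10 tested of 13 glycerolipid entry genes passed (median change -0.05, largest difference GPAT3 at -0.68), and 0 of the 12 tested of 19 measured fatty acid oxidation genes (median 0.01, HADH at -0.49). Of 10 genes of mitochondrial fatty acid synthesis 6 were tested and 0 passed (median -0.05, LIPT2 at -0.52). For comparison, 3 of 20 mevalonate and sterol enzymes rose (MVD, HMGCS1 and TM7SF2), with 19 tested, and the median of the 20 was 0.82. That list holds genes the study chose on these arrays, and its median was not tested against that of the fatty acid enzymes.

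**Figure D4:**
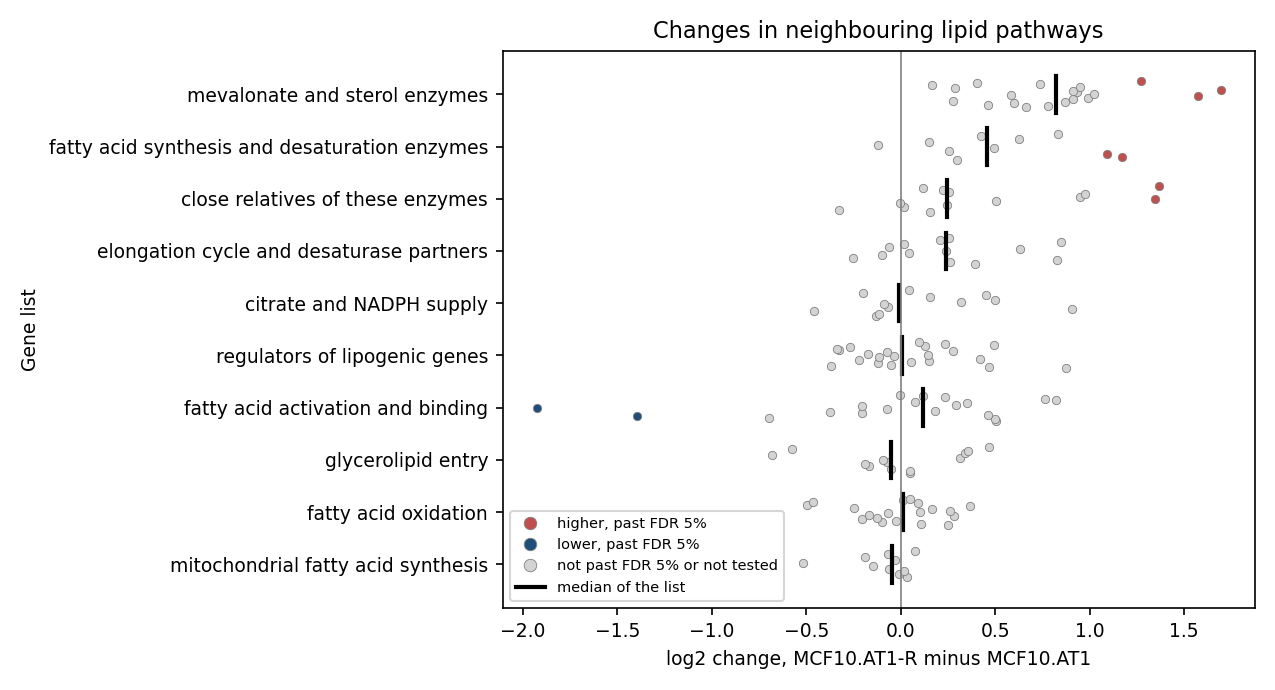
log2 change (MCF10.AT1-R minus MCF10.AT1, x axis) of each gene in 10 lists of lipid genes, with a black line at the median of each list and colour for genes past FDR 5%. The medians are 0.82 for mevalonate and sterol enzymes and 0.46 for the fatty acid enzymes, and lie between -0.05 and 0.24 in the other 8 lists.

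Markers of other cell types that synthesise fat or could be present were also read. Of 9 adipocyte markers, 4 lay above the negative controls on all 5 arrays and 2 were called, both lower: FABP4 and CIDEC, the latter within the negative controls on every MCF10.AT1-R array. CIDEA and LIPE were higher on every MCF10.AT1-R array, at log2 differences of 0.84 and 0.72, and did not pass. CIDEA lay above the negative controls on only 2 of the 5 arrays. The log2 values of the 9 summed to between 30.1 and 32.0 in MCF10.AT1 and between 27.0 and 29.1 in MCF10.AT1-R, and ADIPOQ and LEP were within the negative controls throughout. Of 7 sebocyte markers 0 were called, and their sums were 19.7 to 21.1 and 20.0 to 21.9. Of 8 markers of cornifying keratinocytes 3 rose, IVL, CDSN and KRT1, IVL most (log2 change 3.23, adjusted p = 9.18e-22 from limma), with sums of 23.9 to 24.1 and 29.2 to 31.1, while FLG and CASP14 were within the negative controls on all 5 arrays. Their part in the enzyme changes was not tested. Fibroblast and leukocyte lists had 1 gene each called, DCN and CD14, both lower.

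The genes whose 5 array values, centred on their own mean, lay closest to the mean profile of the 10 enzymes were DGKA, PANK1, AC009969.1, PPCS and KRT79, with root mean square differences of 0.02 to 0.03 among 35758 symbols. PANK1 and PPCS encode enzymes of coenzyme A synthesis. PANK1 read 5.61 and 5.50 in MCF10.AT1 and 6.10, 6.06 and 6.15 in MCF10.AT1-R, and PPCS read 7.71 and 7.73 in MCF10.AT1 and 8.20, 8.15 and 8.27 in MCF10.AT1-R. DGKA was within the negative controls on all 5 arrays. None of these 5 passed in limma, and likeness over 5 arrays is a description only.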

How the data were processed

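Total RNA of both lines was hybridised to Clariom D arrays. The authors made and deposited log2 values by RMA (background correction, quantile normalization, summarisation per probe set) with affy and oligo, for all 6 arrays and 138745 probe sets without a filter. The genome build was not given in the sources used here. Arrays were assigned to lines by the names in the study's principal component plot, since GEO's labels do not carry them.

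Here 2995 control probe sets were left out. Probe sets were kept when their mean over the 5 arrays exceeded the median (log2 1.88) and their SD the lowest 25% (0.18), limits chosen here because the methods give none. The lines were compared in limma 3.58.1 (lmFit, eBayes; R 4.3.3), two-sided, with Benjamini-Hochberg adjustment over all probe sets tested. The fit was tested on simulated data. Per gene the probe set with the highest mean was used, and levels were not compared between genes. Values under 2.99, the mean over the 5 arrays of the 95th percentile of 612 negative controls, were called within the negative controls. The number of arrays limits the precision. In the reported fit, p-values rest on an SD pooled over the tested probe sets of these arrays, and not on each gene's own spread. Without a filter, a gene's own spread also counted.

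Named were the 10 enzymes, from each list up to 3 called genes per direction or otherwise the gene with the largest change, direct relatives, SREBF1, SREBF2 and INSIG1, and the 5 most similar profiles. Genes called in marker lists are named only in part. CYB5R1, HADH, ACSL1, ACSL3 and the markers KRT5, KRT18, CDH1, ADIPOQ, LEP, CIDEA, LIPE, FLG and CASP14 are also given as members of these lists, chosen after their values were seen. CPT1C was not matched to a symbol, and 1 gene counted in the lists is not reported here by name. The enzymes and lists were chosen with earlier results of these data known. Alternatives changed the arrays, array weights, filters, variance model, normalization, probe sets, floor and threshold.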

Additional observations from a re-analysis of the deposited data

How the results depend on the processing

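The log2 change of 9 of the 10 enzymes kept its sign under all 14 alternatives, and FADS1, at -0.12, turned to 0.39 with A03 included and ranged from -0.27 to 0.033 when 1 array was left out, above 0 without A01. With A03 included, 0 enzymes and 26 probe sets passed, and the median change of the enzymes was 1.92, since A03 reads low for all of them. Leaving out 1 array gave 0 to 2 enzymes, 271 to 595 probe sets and a median of 0.42 to 0.49. Where A01 or A02 was left out, the lone MCF10.AT1 array was taken to be as variable as the other line. With the low-expression filter alone 0 enzymes and 182 probe sets passed, without a filter 0 and 177, with the variance trend 5 and 1377, and at FDR 1% 0 and 386. Averaging probe sets left 1 enzyme (ACLY), and a floor at the negative controls gave 272 probe sets, with ACLY and SCD passing (SCD adjusted p = 0.0352 from limma) and ACSS2 not. The adjusted p of ACLY ranged from 5.4e-58 to 0.777 and that of ACSS2 from 0.000232 to 0.777 over the alternatives in limma. The trend fit, like the reported one, drew no information from a gene's own variance, so its smallest p-values rest on the SD of other probe sets at that level. No paired analysis was possible because the array names carry no replicate numbers that match the labels, and the cause of the remaining shifts was not tested.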
